A study of Arabidopsis thaliana with 8 samples.

Results

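The comparison described here sets gbf1 hyh double mutant seedlings of Arabidopsis thaliana against gbf1 single mutant seedlings, and so asks what changes when HYH is lost in addition to GBF1. The members are the 2 arrays titled gbf1 hyh and the 2 titled gbf1, which are 4 of the 8 arrays in the series, and every probe set apart from the array's controls was used. The other 4 arrays are of the gbf1 hy5 double mutant and of wild type, with 2 arrays each. Per the labels, each array carries RNA of whole seedlings from 1 biological replicate. Seedlings of all genotypes were harvested at an age of 4 days from continuous white light (20 µmol m-2 s-1) at 22 °C. Their plates held Murashige and Skoog medium with 0.8% agar and 1% sucrose and had first stood for 4 days at 4 °C. Both genotypes compared carry the gbf1 mutation, and gbf1 hyh carries hyh as well. No source used here names the alleles. An ecotype (Col-0) is stated only for wild type, so genetic background and mutation cannot be told apart in these comparisons.

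GBF1, HY5 and HYH are transcription factors of the bZIP class, which bind DNA as dimers at short elements with an ACGT core. HY5 is a central activator of light-grown seedling development, and HYH, its closest relative, acts in part beside it. GBF1 binds G-box elements and has been linked to the response of seedlings to blue light. Genes with G-box elements include many that serve photosynthesis, pigment synthesis, the clock and hormone responses.

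Values are given as log2 signals from which the probe set's own median across the 8 arrays has been taken. A value of 1 is therefore a signal 2-fold above that median, and the values hold no level that could be compared between genes or that would show whether a tissue marker was present. A difference is a genotype mean minus another on the log2 scale, and is given with its SE (standard error, n = 2 arrays of each genotype). The SE rests on limma's estimate of the spread over all 8 arrays, not on the spread of the compared genotypes alone. Adjusted p-values come from limma with Benjamini-Hochberg adjustment over 22746 probe sets, and called means an adjusted p under 0.05. Rose and fell are used of called probe sets only.

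In the fit of all 8 arrays, added loss of HYH was accompanied by more falls than rises, although without gbf1 replicate 1 their numbers were nearly equal. ECS1, JAL33, ZW9 and HYH itself were the genes with a symbol that fell most. In gbf1 hyh against gbf1, 571 probe sets were called, which is 2.51% of those tested. Of these, 230 were higher (1.01%) and 341 were lower (1.5%) in gbf1 hyh. At a difference of 2-fold or more, 120 were higher and 234 were lower. A difference of 3 or more on the log2 scale was reached by 6 probe sets that rose and 18 that fell. The median difference over all probe sets was 0.02 and the median absolute difference was 0.166. In all 571 called probe sets both arrays of one genotype lay above both of the other, which also held for 8139 probe sets that were not called. Of the called probe sets, 307 have 1 gene in the probe table, and 243 of these genes have only a locus name.

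**Figure D1:**
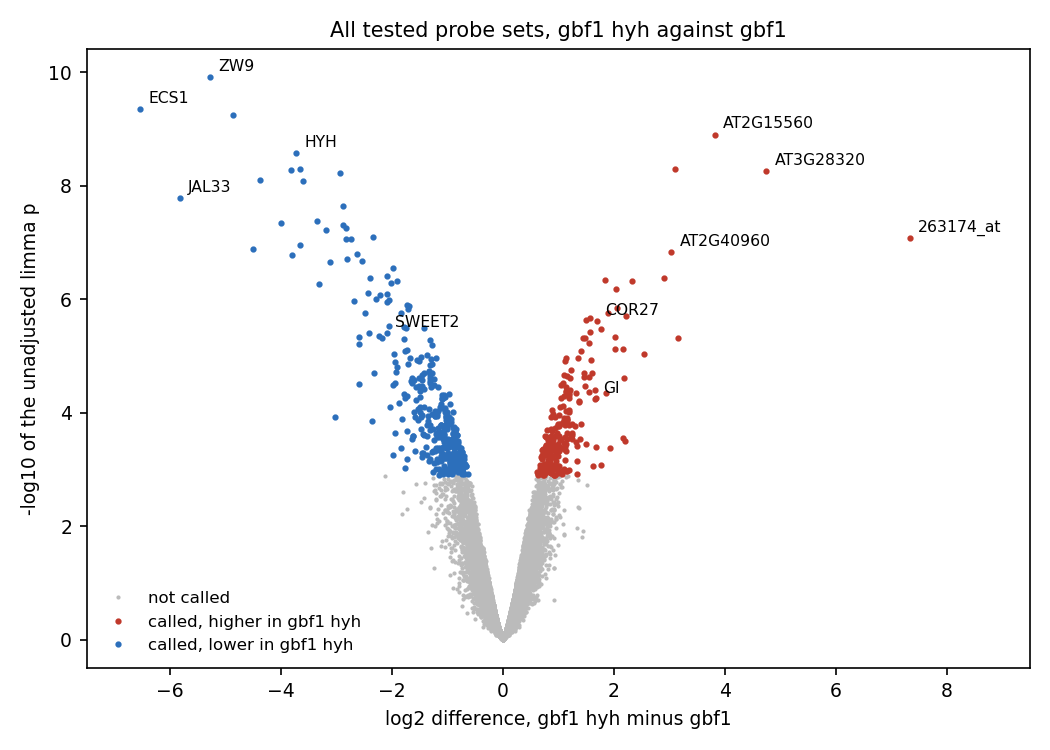
Log2 difference between gbf1 hyh and gbf1 (horizontal axis) against the negative log10 of the unadjusted limma p (vertical axis) for 22746 probe sets. The 230 called rises are red, the 341 called falls are blue and uncalled probe sets are grey. The falls of ECS1 and JAL33 and the rise of 263174_at lie farthest out.

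The number of calls differed between fits, and the genotypes differed in replicate spread. Replicate arrays differed with an SD over probe sets of 0.350 in gbf1 hyh and 0.366 in gbf1, against 0.239 for the gbf1 hy5 pair and 0.236 for the wild type pair. The fit of the 4 arrays of the compared genotypes alone called 90 probe sets, 27 higher and 63 lower, and all 90 were among the 571. Hybridisation control probe sets, which detect RNA added in the array assay, averaged 1.499 on gbf1 hyh replicate 2 and 1.79 on gbf1 replicate 2, whereas the remaining arrays lay between -0.522 and 0.268. Without both of those arrays, 436 probe sets were called, 153 higher and 283 lower, and 306 of them were among the 571. Without gbf1 replicate 1 the calls were nearly even, with 328 higher and 332 lower, and 366 of these 660 were among the 571. The 26 rises and 61 falls that were called in all 18 fits tried make up 87 probe sets, of which 48 have 1 gene. Among those 48, the genes with a symbol were ECS1, JAL33, ZW9, HYH, SWEET2, ACLA-2 and COR27.

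**Figure D2:**
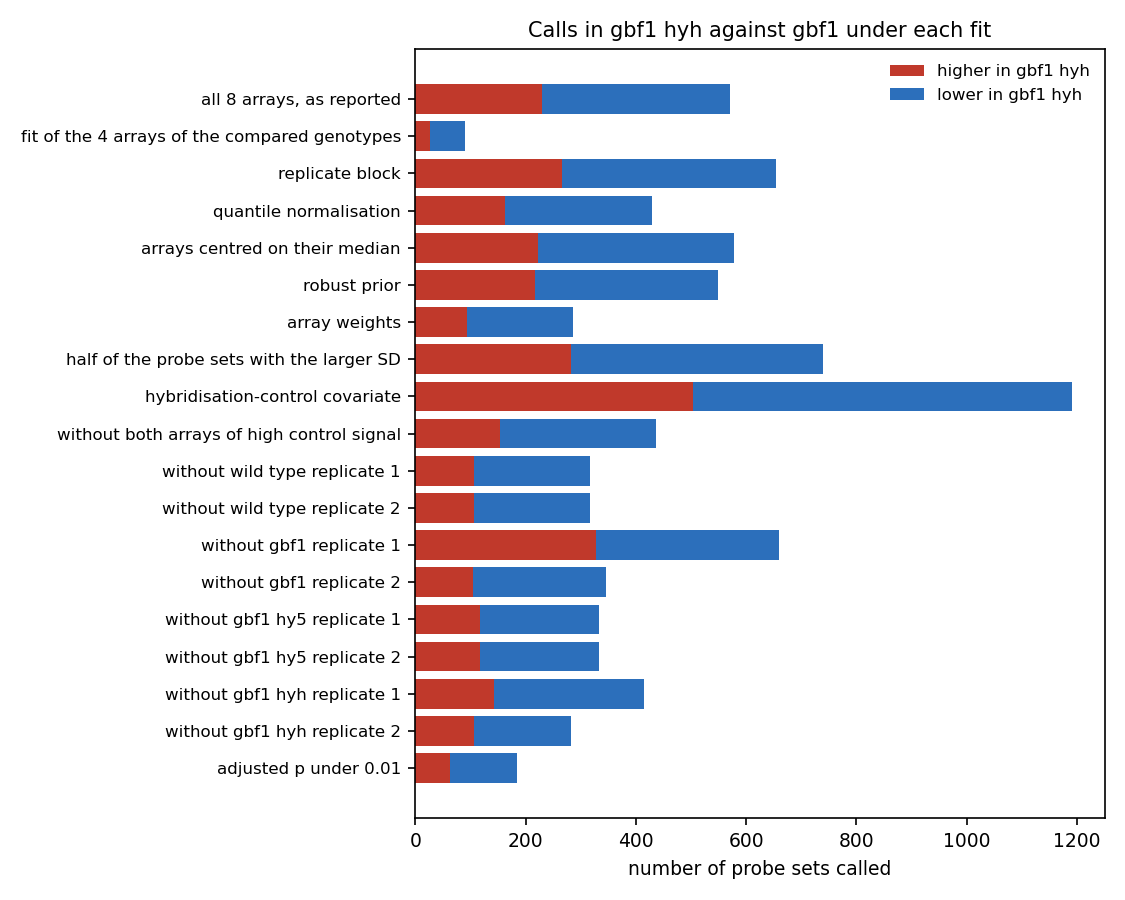
Number of probe sets called in gbf1 hyh against gbf1 under each fit, split into rises (red) and falls (blue). The fit of all 8 arrays called 571, the fit of the compared genotypes alone called 90, and the other fits called between 282 and 1191. The lowest bar reads the fit of all 8 arrays at an adjusted p under 0.01, which 185 probe sets passed.

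HYH itself (probe set 258349_at, locus AT3G17609 on chromosome 3) was measured at -2.03 and -1.78 in gbf1 hyh, against 1.69 and 1.94 in gbf1. The gbf1 hyh arrays were the lowest of the series and the gbf1 arrays the highest. The fall was -3.72 ± 0.17 (SE, n = 2 arrays each, limma adjusted p = 1.21e-05), or 13.2-fold. In gbf1 hy5, which is not labelled as mutant for HYH, the values were -1.01 and -0.86, and wild type had 1.08 and 0.86. The gbf1 hyh value differed from that of gbf1 hy5 by -0.97 ± 0.17 (limma adjusted p = 0.0166). The probe table ties no probe set to GBF1 or HY5 alone, so these genes were not checked. Of 15 measured genes with a bZIP symbol, HYH fell and the other 14 did not pass, with 3 of the 15 at an unadjusted p under 0.05, a threshold that 14.3% of all probe sets passed.

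The largest fall was that of ECS1 (256497_at, AT1G31580), which encodes a cell wall-associated protein that has been linked to resistance to Xanthomonas. Its values were -6.01 and -5.69 in gbf1 hyh, against 1.05 and 0.32 in gbf1. The fall was -6.53 ± 0.24, or 92.6-fold (limma adjusted p = 4.35e-06). Both gbf1 hy5 arrays (1.58 and 1.25) and both wild type arrays (-0.35 and -0.32) lay far above those of gbf1 hyh. ZW9 (256021_at, AT1G58270) had -4.53 and -4.23 in gbf1 hyh, against 0.79 and 0.99 in gbf1, a difference of -5.27 ± 0.17 (limma adjusted p = 2.8e-06). Its gbf1 hy5 arrays had 0.29 and 0.15 and its wild type arrays -0.39 and -0.15, so gbf1 hyh alone was low there too. ZW9 also differed by 1.16 between gbf1 and wild type (limma adjusted p = 0.0245), the one gene among the 12 largest falls for which that comparison passed. In gbf1 against wild type, which shares the gbf1 arrays, 0.418% of all probe sets were called.

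Among genes known here by locus name only, AT1G23960 showed the same arrangement, with -4.26 and -4.12 in gbf1 hyh, against -0.18 and 0.56 in gbf1. AT1G20390 had -2.85 and -2.44 in gbf1 hyh, against 1.11 and 1.23 in gbf1. AT4G02540 had -3.32 and -3.68 in gbf1 hyh, against 0.23 and 0.07 in gbf1. In each of these genes the gbf1 hyh arrays stood below the arrays of all other genotypes. AT1G66100 differed by -3.65, AT1G16260 by -3.59, AT1G35612 by -3.35 and AT1G11280 by -2.89, with limma adjusted p between 1.59e-05 and 0.000105. For these 4 genes too, no array of another genotype reached down to the gbf1 hyh arrays.

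**Figure D3:**
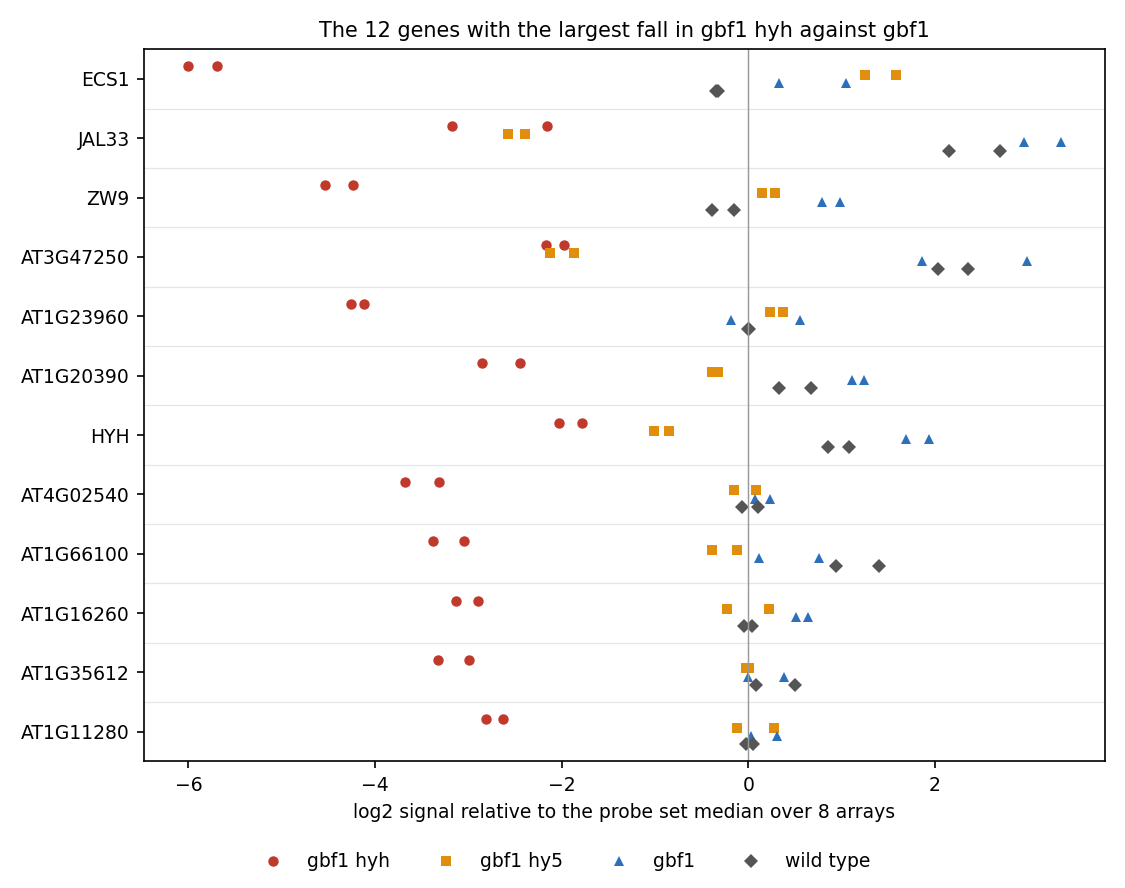
Log2 signal relative to the probe set median on each of the 8 arrays for the 12 genes of largest fall, with gbf1 hyh in red, gbf1 hy5 in orange, gbf1 in blue and wild type in grey. In JAL33 and AT3G47250 the gbf1 hy5 arrays lie beside those of gbf1 hyh, and in the other genes the gbf1 hyh arrays lie lowest.

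In a pair of the large falls the gbf1 hy5 arrays were low as well. JAL33 (259384_at, AT3G16450), a gene of a jacalin-related lectin, had -3.18 and -2.15 in gbf1 hyh, -2.40 and -2.57 in gbf1 hy5, 2.96 and 3.35 in gbf1, and 2.15 and 2.69 in wild type. Its fall from gbf1 was -5.82 ± 0.32 (limma adjusted p = 2.9e-05), while gbf1 hyh and gbf1 hy5 differed by -0.18 ± 0.32 (limma adjusted p = 0.876). The arrays of the double mutants overlapped. The other measured genes with a JAL symbol, JAL34, JAL22 and JAL23, did not pass, with differences of -0.20, -0.76 and -0.25 in gbf1 hyh against gbf1. Lectin genes with only a locus name were not part of this family. AT3G47250 had -1.98 and -2.17 in gbf1 hyh, -2.12 and -1.87 in gbf1 hy5, and 2.98 and 1.87 in gbf1. It fell by 4.50 and differed from gbf1 hy5 by -0.08 ± 0.31 (limma adjusted p = 0.953).

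Tested directly, gbf1 hyh and gbf1 hy5 differed in 631 probe sets, 2.77% of those tested, with 231 higher (1.02%) and 400 lower (1.76%) in gbf1 hyh. This comparison, which equals the difference between adding hyh and adding hy5 to gbf1, shares its gbf1 hyh arrays with the one above. Of the 12 genes of largest fall, 10 also lay below gbf1 hy5 at an adjusted p under 0.05, all but JAL33 and AT3G47250. All 12 lay below wild type, a comparison in which 1.28% of probe sets were called. That comparison shares the gbf1 hyh arrays as well, and the 12 were chosen on those arrays, so neither count is a separate result. All 12 falls were also called in the fit of the 4 arrays alone, without both arrays of high control signal, after quantile normalisation, and with any 1 of the 8 arrays left out.

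The 12 largest rises with a gene lay between 2.02 and 4.75, and in the first 4 of them gbf1 hy5 was high as well. AT3G28320 had 2.45 and 2.3 in gbf1 hyh, 1.89 and 2.28 in gbf1 hy5, -2.33 and -2.42 in gbf1, and -1.89 and -2.58 in wild type. Its rise over gbf1 was 4.75 ± 0.23 (limma adjusted p = 1.33e-05), and its difference from gbf1 hy5 was 0.29 (limma adjusted p = 0.67). AT2G15560 rose by 3.83, AT1G50290 by 3.15 and AT3G05150 by 3.1, and in all 3 the double mutants lay high and gbf1 and wild type low. Adding hy5 to gbf1 changed these genes by 4.84, 3.55 and 2.72, in a comparison that shares the gbf1 arrays and called 4.45% of probe sets. In AT2G15560, gbf1 hyh differed from gbf1 hy5 by -1.01 (limma adjusted p = 0.011).

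AT2G40960 had a different order over the genotypes. Its values were 2.32 and 2.03 in gbf1 hyh, -1.72 and -1.99 in gbf1 hy5, -0.57 and -1.15 in gbf1, and 0.73 and 0.57 in wild type. It rose by 3.04 ± 0.21 over gbf1 (limma adjusted p = 0.000131) and stood 4.03 above gbf1 hy5 (limma adjusted p = 2.96e-05). No pair of genotypes overlapped in this gene. AT2G41190 was raised to 1.59 and 1.64 in gbf1 hyh, against -0.33 and -0.52 in gbf1, and it also lay above gbf1 hy5 by 1.62 (limma adjusted p = 0.0014).

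Some rises set gbf1 hyh near wild type, because gbf1 was the low genotype. AT4G16146 had 0.26 and -0.02 in gbf1 hyh, 0.07 and 0.29 in gbf1 hy5, -1.72 and -2.16 in gbf1, and 0.02 and -0.06 in wild type. It rose by 2.06 over gbf1 (limma adjusted p = 0.000631) and differed from wild type by 0.14 ± 0.19 (limma adjusted p = 0.872). AT4G30650 rose by 2.55 over gbf1 (limma adjusted p = 0.00243) and differed from wild type by 0.13 (limma adjusted p = 0.937). These genes, with AT2G40960, were the 3 of the 12 largest rises in which gbf1 also lay below wild type at a limma adjusted p under 0.05. That comparison shares the gbf1 arrays by which the rises were chosen. The gbf1 mean was lower than that of wild type, without passing, in others of the 12, such as AT4G34950 (-1.21) and AT2G18370 (-1.15).

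The remaining rises of this group were AT5G09480 (2.21), AT3G16670 (2.17), AT4G34950 (2.16) and AT2G18370 (2.02), with limma adjusted p between 0.00148 and 0.0219. In AT3G16670 the 2 arrays of gbf1 hy5 lay far apart, at 0.35 and 1.86, and in AT5G09480 those of gbf1 hyh did, at 0.89 and 2.21. Both of these calls held in 2 of the 8 fits that left out 1 array, while the other 10 of the 12 rises were called in all 8. Of the 12, 9 were called in the fit of the 4 arrays alone. Against gbf1 hy5, 4 of the 12 differed, and against wild type 6 did. Those comparisons, in which 2.77% and 1.28% of probe sets were called, share the gbf1 hyh arrays by which the 12 were chosen.

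**Figure D4:**
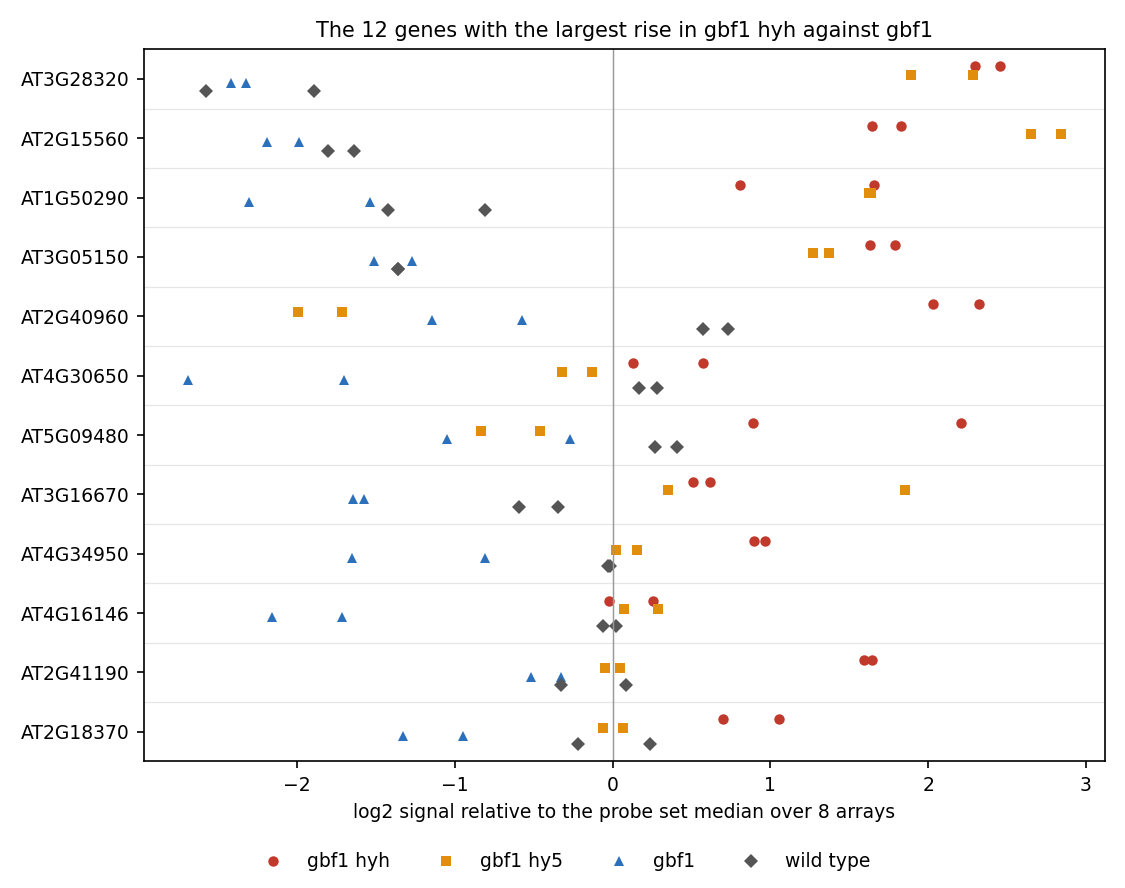
Log2 signal relative to the probe set median on each of the 8 arrays for the 12 genes of largest rise, with gbf1 hyh in red, gbf1 hy5 in orange, gbf1 in blue and wild type in grey. In the first 4 genes both double mutants lie high, and in AT4G16146 the gbf1 arrays alone lie low.

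Probe sets without a gene in the table included the largest rise of all. Probe set 263174_at had 6.38 and 6.02 in gbf1 hyh, 0.86 and 2.69 in gbf1 hy5, -1.29 and -0.98 in gbf1, and -0.86 and -1.41 in wild type. Its rise over gbf1 was 7.34 ± 0.48 (limma adjusted p = 8.66e-05), and it stood 4.43 above gbf1 hy5 (limma adjusted p = 0.00168). Probe set 248337_at rose by 2.91 and 262542_at by 2.33. Of the 3 largest falls without a gene, 256601_s_at (-4.00) and 259040_at (-3.31) were low in gbf1 hy5 too, with limma adjusted p of 0.982 and 0.288 for the difference between the double mutants. Probe set 254805_at (-3.80) had -3.17 and -3.87 in gbf1 hyh and values between -0.38 and 0.72 on all other arrays.

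The called genes with a symbol number 64, with 30 rises and 34 falls. They are described by role below; 44 of them lie outside the rule for named genes and were chosen after their values were seen. Many of their calls depended on the fit. In the fit of the 4 arrays alone 7 of the 64 were called, and 10 were called whichever array was left out. Without both arrays of high control signal 31 were called, and after quantile normalisation 40 were. Because whole seedlings were measured, a lower signal may come from fewer cells of a type or from less RNA per cell, which cannot be told apart.

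Genes of the clock, cold response and flowering moved in both directions. GI, which encodes the clock and flowering protein GIGANTEA, had 1.37 and 0.72 in gbf1 hyh, against -0.37 and -0.88 in gbf1. It rose by 1.67 ± 0.24 (limma adjusted p = 0.00762), and it stood 1.5 above gbf1 hy5 (limma adjusted p = 0.0116), whose arrays had -0.36 and -0.54. Wild type lay between the genotypes compared, at 0.36 and 0.44. The call of GI held with any array left out, but in the fit of the 4 arrays alone its limma adjusted p was 0.117. The other measured members of the clock list, CCR2 (0.27) and FIO1 (0.23), did not pass.

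COR27, a cold-regulated gene that acts on the clock, had 0.42 and 0.53 in gbf1 hyh, 0.79 and 0.82 in gbf1 hy5, -1.11 and -1.34 in gbf1, and -0.76 and -0.42 in wild type. Both double mutants lay above both other genotypes. The rise over gbf1 was 1.7 ± 0.16 (limma adjusted p = 0.000927), and the difference from gbf1 hy5 was -0.33 (limma adjusted p = 0.429). COR15B, which encodes a protective protein of the chloroplast in the cold, had 0.85 and -0.04 in gbf1 hyh, against -1.61 and -0.82 in gbf1. It rose by 1.62 (limma adjusted p = 0.0404), a call that held in 2 of the 8 fits that left out an array, and wild type lay at 1.18 and 0.71. Of the 4 measured genes in the list of abscisic acid and cold response COR15B alone passed, while COR15A (0.33), COR47 (0.47) and LTI30 (-0.92) did not. All 4 had an unadjusted p under 0.05, however, beside 2.51% called and 14.3% under that unadjusted p over all probe sets. CCL rose by 0.87. AFR, an F-box gene of far-red light signalling, fell by 1.06, and SMZ, which encodes a floral repressor, fell by 0.93.

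Several genes that move or use sugars changed. SWEET2, a sugar transporter of the vacuolar membrane, had -0.66 and -0.77 in gbf1 hyh, -0.43 and -0.04 in gbf1 hy5, 1.46 and 1.3 in gbf1, and 0.04 and 0.63 in wild type. The gbf1 arrays stood alone above the rest. The fall from gbf1 was -2.09 ± 0.21 (limma adjusted p = 0.00136), and gbf1 hyh differed from gbf1 hy5 by -0.48 (limma adjusted p = 0.365). SWEET16, another sugar transporter of that membrane, fell by 1.06 (limma adjusted p = 0.0196). The other 12 of the 14 measured SWEET genes did not pass, with 5 of the 14 at an unadjusted p under 0.05, against 14.3% of all probe sets. TMT1, a monosaccharide transporter of the same membrane, rose by 1.11 (limma adjusted p = 0.013).

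ACLA-2, a subunit of the ATP-citrate lyase that supplies acetyl-CoA in the cytosol, rose to 1.67 and 1.48 in gbf1 hyh, against 0.03 and -0.03 in gbf1. Its gbf1 hy5 arrays (-0.05 and 0.29) and wild type arrays (-0.21 and -0.30) lay near those of gbf1. The rise was 1.57 ± 0.16 (limma adjusted p = 0.0013), and gbf1 hyh stood 1.45 above gbf1 hy5 (limma adjusted p = 0.00182). PWD, a kinase of starch breakdown, rose by 1.34, PDC2, a pyruvate decarboxylase, by 1.06 and FDH, a formate dehydrogenase, by 0.75. PPDK, which makes phosphoenolpyruvate from pyruvate, fell by 0.77. Of these 4, no call held in all 8 fits that left out an array, and that of PPDK held in none. In the list of starch, sucrose and trehalose metabolism the 2 SWEET genes fell and the other 11 of 13 did not pass. Of the 13, 6 had an unadjusted p under 0.05, beside 2.51% called and 14.3% under that unadjusted p over all probe sets. In amino acid, nitrogen and vitamin metabolism, THIC of thiamine synthesis rose by 1.12, the methionine gamma-lyase gene MGL by 1.08 and the ornithine aminotransferase gene DELTA-OAT by 0.79. The cyanase gene CYN fell by 1.31.

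**Figure D5:**
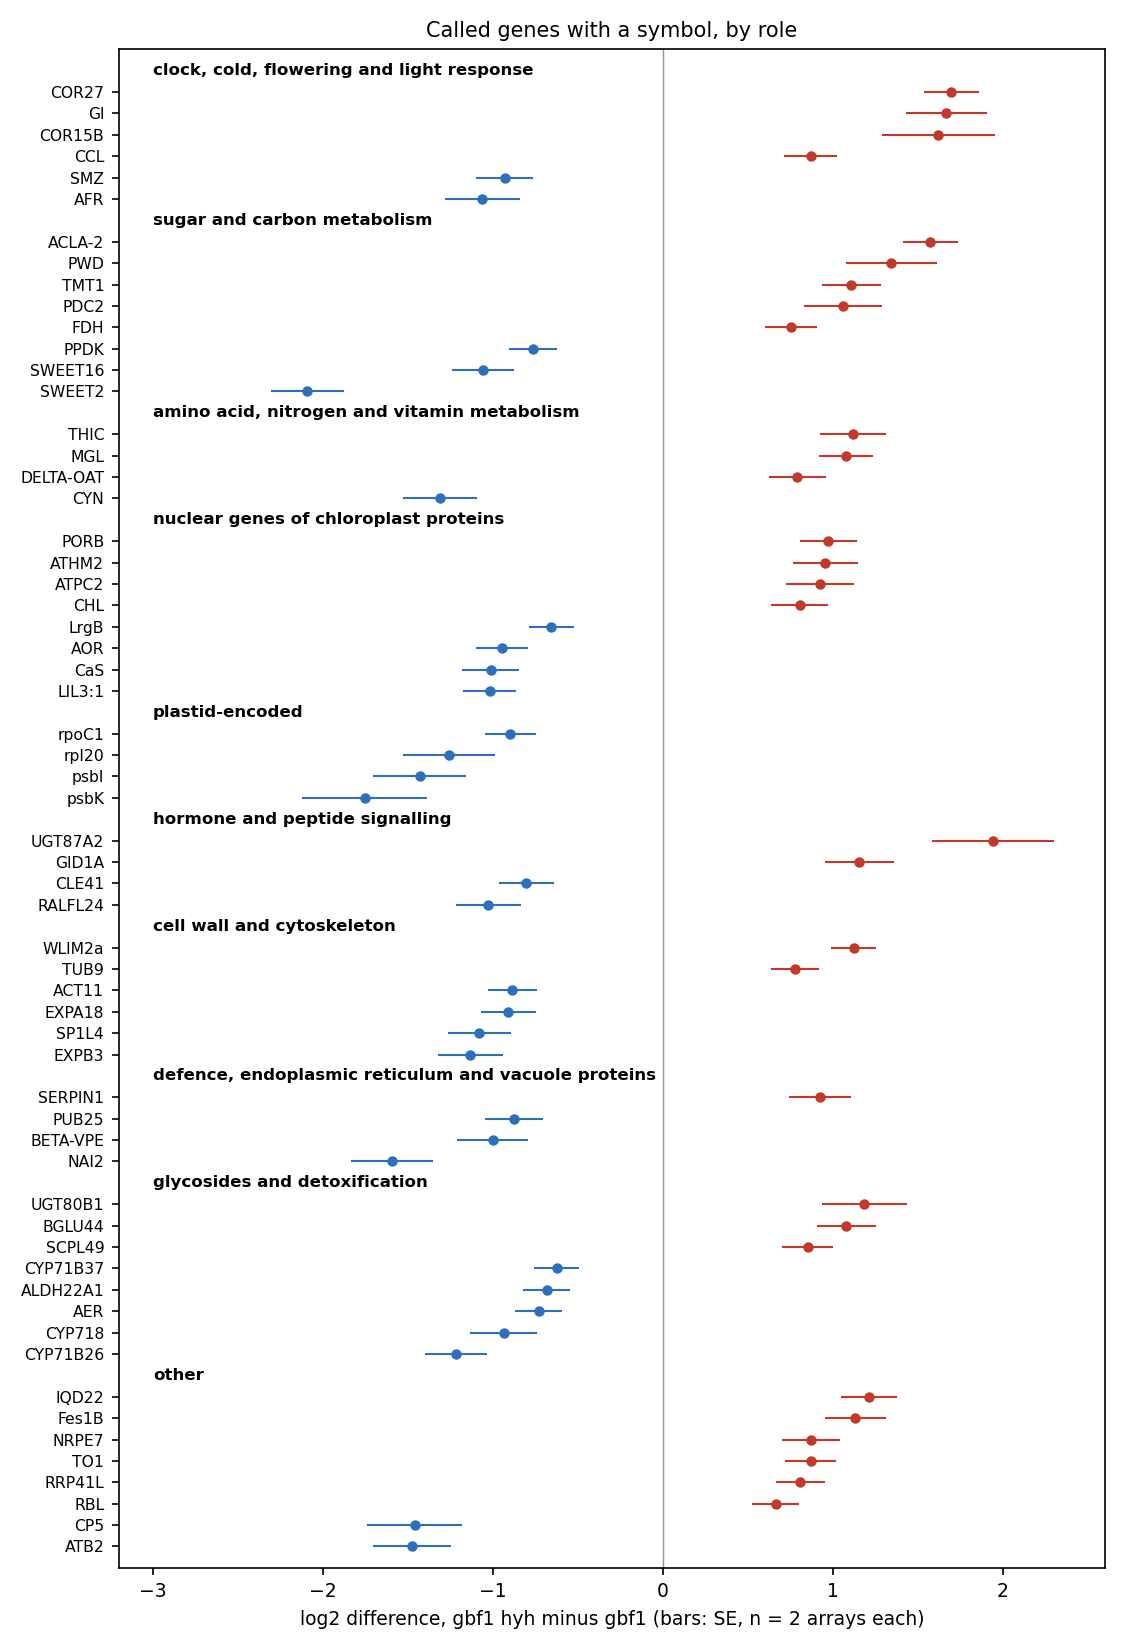
Log2 difference between gbf1 hyh and gbf1 for the called genes with a symbol other than HYH, ECS1, JAL33 and ZW9, grouped by role, with rises in red and falls in blue. Bars are the SE from 2 arrays per genotype. The plastid-encoded genes all lie below 0, and the other role groups each hold both rises and falls.

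Nuclear genes of chloroplast proteins were split into 4 rises and 4 falls. PORB, an enzyme of the light-dependent step of chlorophyll synthesis, had 0.27 and 0.57 in gbf1 hyh, against -0.62 and -0.49 in gbf1. It rose by 0.97 ± 0.17 (limma adjusted p = 0.0198) and lay 0.79 above gbf1 hy5 (limma adjusted p = 0.0446). LIL3:1, a light-harvesting-like protein that serves chlorophyll synthesis, had -0.74 and -1.07 in gbf1 hyh, against 0.16 and 0.06 in gbf1. It fell by 1.02 (limma adjusted p = 0.0123) and lay 1.01 below gbf1 hy5 (limma adjusted p = 0.0112). In the list of chlorophyll and tetrapyrrole synthesis, PORB rose and the other 11 of 12 measured genes did not pass, with a median difference of -0.16. Of the 12, 3 had an unadjusted p under 0.05, beside 2.51% called and 14.3% under that unadjusted p over all probe sets.

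CaS, a calcium-sensing protein of the thylakoid, fell by 1.01, the oxidoreductase gene AOR by 0.94 and LrgB, a glycolate and glycerate translocator, by 0.65. The thioredoxin gene ATHM2 rose by 0.95, the ATP synthase subunit gene ATPC2 by 0.92 and the lipocalin gene CHL by 0.80. None of these 6 was called in the fit of the 4 arrays alone, where their limma adjusted p lay between 0.118 and 0.248. PORB and LIL3:1 were not called in that fit either (limma adjusted p = 0.145 and 0.141). A measured gene was found for 3 of 25 listed light-harvesting symbols and 6 of 43 of nuclear photosystem and electron transport genes. For the Calvin cycle it was 4 of 24 and for flavonoid synthesis 8 of 58. No measured member of these lists passed. At an unadjusted p under 0.05 these lists held 1, 2, 0 and 2 members, beside 14.3% of all probe sets. LHCB4.2, a minor antenna protein, had -0.31 and -0.08 in gbf1 hyh, -1.61 and -1.69 in gbf1 hy5, 0.81 and 0.44 in gbf1, and 0.08 and 0.39 in wild type. Its difference from gbf1 was -0.82 (limma adjusted p = 0.0534).

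Of 69 plastid-encoded genes, 4 fell (5.80%), 0 rose and 65 did not pass, beside 2.46% called of all genes placed. At an unadjusted p under 0.05 there were 22 of the 69, against 13.9% of all genes placed. Over the 69 genes 52 differences lay below 0 and the median was -0.32, against a median of 0.02 over all genes. The photosystem II subunit gene psbK had -0.83 and -1.53 in gbf1 hyh, -1.27 and -0.24 in gbf1 hy5, 0.92 and 0.24 in gbf1, and 0.51 and 0.85 in wild type. It fell by 1.75 ± 0.37 (limma adjusted p = 0.0424). Another subunit gene of that complex, psbI, fell by 1.43, the ribosomal protein gene rpl20 by 1.26 and rpoC1, a subunit of the plastid RNA polymerase, by 0.90. The replicates of gbf1 lay far apart in the first 3, and none of the 4 was called in the fit of the 4 arrays alone, where their limma adjusted p lay between 0.0925 and 0.178. The gene of the large Rubisco subunit, rbcL, differed by -0.76 (limma adjusted p = 0.062), and psbA, which encodes the D1 protein, by 0.60 (limma adjusted p = 0.46). How far signals made with 3' labelling follow plastid transcripts was not tested.

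In hormone and peptide signalling, the gibberellin receptor gene GID1A had 0.41 and 0.44 in gbf1 hyh, against -1.01 and -0.45 in gbf1. It rose by 1.16 ± 0.20 (limma adjusted p = 0.0212). The other receptor genes, GID1B (0.10) and GID1C (0.23), did not pass. UGT87A2, a glycosyltransferase that acts in flowering time, had 1.78 and 0.81 in gbf1 hyh, against -0.25 and -1.05 in gbf1. It rose by 1.94 (limma adjusted p = 0.0255). In the fit of the 4 arrays alone the limma adjusted p was 0.156 for GID1A and 0.166 for UGT87A2. CLE41, a signal peptide of the vascular stem cells, fell by 0.80, and RALFL24, a peptide of the RALF type, fell by 1.03. Of 15 auxin genes 0 passed, with 1 at an unadjusted p under 0.05, beside 2.51% called and 14.3% under that unadjusted p over all probe sets.

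Among cell wall and cytoskeleton genes, 4 fell and 2 rose. EXPB3, a beta-expansin, had -0.90 and -0.41 in gbf1 hyh, against 0.47 and 0.49 in gbf1, and fell by 1.13 (limma adjusted p = 0.0189). EXPA18, a root hair expansin, had 0.30 and 0.66 in gbf1 hyh, -0.30 and -0.34 in gbf1 hy5, 1.37 and 1.41 in gbf1, and -0.50 and -0.68 in wild type. It fell by 0.91 (limma adjusted p = 0.0215), yet it remained 1.08 above wild type (limma adjusted p = 0.0146), since gbf1 stood 1.98 above wild type. In the fit of the 4 arrays alone EXPB3 and EXPA18 were not called (limma adjusted p = 0.145 and 0.178). After quantile normalisation they were not called either (limma adjusted p = 0.0565 and 0.0689). The other measured root hair marker, EXPA7, had -0.16 and 0.18 in gbf1 hyh, against 0.76 and 1.38 in gbf1, a difference of -1.06 (limma adjusted p = 0.055). In the list of expansins and xyloglucan endotransglucosylases 2 of 25 fell, 0 rose and 7 had an unadjusted p under 0.05, beside 2.51% called and 14.3% under that unadjusted p over all probe sets. SP1L4, which is related to a protein of microtubules, fell by 1.08 and the actin gene ACT11 by 0.88, whereas the actin-binding gene WLIM2a rose by 1.12 and the tubulin gene TUB9 by 0.78. The rise of WLIM2a held with any array left out, but in the fit of the 4 arrays alone its limma adjusted p was 0.0736.

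Beside ECS1 and JAL33, 3 genes of defence, the endoplasmic reticulum and the vacuole fell and 1 rose. NAI2, which is needed for endoplasmic reticulum bodies, had -0.92 and -1.47 in gbf1 hyh, against 0.71 and 0.09 in gbf1, and fell by 1.59 (limma adjusted p = 0.0112). The vacuolar protease gene BETA-VPE fell by 1.00 and the ubiquitin ligase gene PUB25 by 0.88, and the protease inhibitor gene SERPIN1 rose by 0.92. In the list of salicylic acid and defence, ECS1 fell and the other 8 of 9 measured genes did not pass. Of the 9, 3 had an unadjusted p under 0.05, beside 2.51% called and 14.3% under that unadjusted p over all probe sets. Among genes of glycosides and detoxification, the beta-glucosidase gene BGLU44 rose by 1.08 and lay 0.95 above gbf1 hy5 (limma adjusted p = 0.0222). UGT80B1, which glycosylates sterols, rose by 1.19 and SCPL49, a serine carboxypeptidase-like gene, by 0.85. The cytochrome P450 genes CYP71B26, CYP718 and CYP71B37 fell by 1.22, 0.94 and 0.62. The call of CYP71B37 held in 0 of the 8 fits that left out an array. By family, 2 of 23 cytochrome P450 genes of the usual symbol form (without CYP718), 2 of 47 UDP-glycosyltransferase genes and 1 of 20 BGLU genes were called. At an unadjusted p under 0.05 these families held 5, 9 and 6 members. Over all probe sets 2.51% were called and 14.3% had an unadjusted p under 0.05. CYP71B26 had -0.77 and -0.43 in gbf1 hyh, -0.89 and -0.68 in gbf1 hy5, 0.43 and 0.81 in gbf1, and 1.45 and 1.41 in wild type, so both double mutants lay below both other genotypes. The alkenal reductase gene AER fell by 0.73 (limma adjusted p = 0.0285) and lay 1.1 below gbf1 hy5 (limma adjusted p = 0.00372). The aldehyde dehydrogenase gene ALDH22A1 fell by 0.68. Neither of these falls from gbf1 was called in any fit that left out an array. In the fit of the 4 arrays alone their limma adjusted p was 0.213 and 0.229.

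The remaining called genes with a symbol included 6 rises. IQD22, of a family that binds calmodulin, rose by 1.21 (limma adjusted p = 0.00617), and in gbf1 it lay 1.05 below wild type. Fes1B, related to a nucleotide exchange factor of HSP70, rose by 1.13 and stood 1.23 above gbf1 hy5 (limma adjusted p = 0.00849). NRPE7, a subunit of RNA polymerase V, rose by 0.87 and RRP41L, related to a subunit of the exosome, by 0.81. TO1 rose by 0.87 and RBL by 0.66. The falls were those of ATB2 (-1.48) and CP5 (-1.46).

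Most lists and families held few called members. Of 26 lists and 41 families by symbol, 55 had a measured member, 20 had a called one, and the plastid-encoded genes alone had 3 or more. Families with 0 called members included 13 glutathione transferases, 15 GH9 endoglucanases, 15 tetraspanins and 22 TBL genes. Their members at an unadjusted p under 0.05 numbered 1, 2, 1 and 2, beside 14.3% of all probe sets. None of 4 measured seed genes passed or had an unadjusted p under 0.05. BCAT4 of glucosinolate synthesis differed by -0.90 (limma adjusted p = 0.07).

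By gene order on chromosome 3, none of the 36 measured genes within 50 genes on either side of HYH was called, and 4 had an unadjusted p under 0.05, against 13.9% of all genes placed. Called were 3 of 86 within 100 genes on either side (3.49%), 10 of 236 within 250 (4.24%) and 14 of 454 within 500 (3.08%), against 302 of 12293 genes placed (2.46%). The last 14 included SWEET2, SWEET16, NAI2, JAL33, BGLU44 and PUB25. JAL33 lay 126 genes from HYH. By chromosome the called share was 2.64% on chromosome 1, 2.68% on 2, 3.22% on 3, 2.44% on 4 and 1.36% on 5.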

How the data were processed

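Per the labels' protocols, RNA came from an RNeasy kit and was labelled with biotin by a 3' IVT Express kit. RMA in GeneSpring made the array values, per the series design text, and the submitters' processing notes name RMA too, without a version. The deposited values were read as log2 signals, although no source used here states the base. Each of the 22810 probe sets has a median of 0 across the 8 arrays (to within 5e-07), so the deposited log2 values are centred per probe set and hold no expression level. The 64 control probe sets were left out, and 22746 were tested.

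The labels gave each sample's genotype and so its group. One limma model (version 3.58.1 in R 4.3.3, moderated by eBayes) held a mean for each of the 4 genotypes over all 8 arrays, with 4 residual and 5.124 prior degrees of freedom and Benjamini-Hochberg adjustment. The number of arrays limits the precision. The members and lists were chosen with earlier results of these data known.

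The probe table tied 13513 probe sets to 1 gene, 503 to several and 8730 to none, so genes without a measured member may still be on the array. A gene table of assembly TAIR10.1 held 13436 of the 13513 and was used for names and gene order only. Lists used 1 probe set per gene. A planned count of promoter motifs was not run, and no sequence was used here.

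Named genes were HYH, the 12 largest called rises and falls among probe sets of 1 gene whose genotypes did not overlap, up to 3 called members of each list or family with at least 3 of them, 1 of each other list or family, and the 3 largest rises and falls without a gene. Alternatives were the 4 compared arrays alone, a replicate block, quantile normalisation, centred arrays, a robust prior, array weights, the more variable probe sets alone, a hybridisation-control covariate, an adjusted p under 0.01, and each array, or both arrays of high control signal, left out.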

Additional observations from a re-analysis of the deposited data

Results flagged for a closer look

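Control probe sets outside the comparisons differed between arrays of the same genotype. The 18 hybridisation control probe sets averaged 1.499 on gbf1 hyh replicate 2 and 1.79 on gbf1 replicate 2, against values between -0.522 and 0.268 on the other 6 arrays. Controls added before labelling averaged between -0.231 and 0.231 on all arrays. The high arrays are 1 of each genotype compared, and the difference between gbf1 hyh and gbf1 was computed with and without both of them.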

How the results depend on the processing

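For gbf1 hyh against gbf1, the count of 571 calls moved by over 1.5 times in the fit of the 4 arrays alone (90), with array weights (286), with the hybridisation-control covariate (1191) and at an adjusted p under 0.01 (185). For gbf1 hyh against gbf1 hy5, the count of 631 moved as far in the fit of the 4 arrays alone (376), with the covariate (1071) and at the stricter threshold (216). Leaving out 1 array gave between 282 and 660 calls against gbf1 and between 162 and 794 against gbf1 hy5. Against gbf1, the counts were 282 without gbf1 hyh replicate 2, 346 without gbf1 replicate 2, 316 without either wild type array and 333 without either gbf1 hy5 array. The last 2 genotypes enter that difference through the spread alone. Against gbf1 hy5, they were 175 and 162 without gbf1 hy5 replicates 1 and 2, 299 without gbf1 hyh replicate 2, and 380 without either wild type array. The share of calls that were higher in gbf1 hyh than in gbf1 was 40.3%, but 30.0% in the fit of the 4 arrays, 49.7% without gbf1 replicate 1 and 30.1% without gbf1 replicate 2. A genotype left with 1 array was assumed to vary like the others. Quantile normalisation gave 429 calls, centred arrays 578, a robust prior 549 and the more variable probe sets 739.

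With a replicate block, 654 probe sets were called against gbf1 and 736 against gbf1 hy5. Deviations of same-numbered arrays correlated at 0.336 between gbf1 hyh and gbf1, the highest of the pairs. The value was -0.113 between gbf1 hyh and gbf1 hy5, with others between -0.024 and 0.092. The main fit did not pair the arrays by number, and low values of other pairs do not settle this for the genotypes compared. Replicate 2 of gbf1 and of gbf1 hyh also had the widest interquartile ranges (0.321 and 0.300), against 0.168 to 0.215 on the other arrays. In all 4 genotypes replicate 2 lay above replicate 1 in the hybridisation controls, in the controls added before labelling and in the difference between 5' and 3' plant control probe sets. Whether the numbers mark a shared processing run was not tested.

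Of the 90 probe sets named, 0 changed direction under any alternative. The block lost 2 of their calls, quantile normalisation 24, array weights 42 and the fit of the 4 arrays 60, and leaving out 1 array lost between 31 and 45. Apart from the fewer samples or residual degrees of freedom in these fits, the cause was not tested. Leaving out dim probe sets was planned but not run, since the values hold no level.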
